A study of Oryza sativa Japonica Group with 12 samples.

Results

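The aquaporin and SWEET gene families of rice were followed in crown root (CR) primordia and in the stem cortex around them. Members were taken as the genes whose symbol or synonym in the RefSeq gene table names a PIP, TIP, NIP or SIP aquaporin or a SWEET transporter. The rule matched 42 genes, and 41 of them had a probe set of their own among the 24160 genes measured on the array: 3 PIP1, 8 PIP2, 8 TIP, 6 NIP, 2 SIP and 14 SWEET genes. NIP3-3 has no probe set in the annotation used here. Each member was read by 1 probe set, so no member has a second measurement on the same array.

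Aquaporins are membrane channels that let water pass along its gradient. The plasma membrane intrinsic proteins (PIP1 and PIP2) sit at the cell surface, the tonoplast intrinsic proteins (TIP) in the vacuole membrane, the NOD26-like proteins (NIP) also carry solutes such as silicon and boron, and the small basic proteins (SIP) lie in the endoplasmic reticulum in Arabidopsis. Vacuoles enlarge as plant cells leave the meristem and elongate, and TIPs and PIPs are known for their part in that water flow. SWEET proteins move sugar across membranes down its gradient in either direction. Members of clade III, which holds SWEET11 to SWEET15, carry sucrose and are known for its release towards the phloem and the seed, while other clades mostly carry hexoses.

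All plants were wild-type rice of the japonica cultivar Taichung 65, grown on culture medium without added treatment and taken 8 days after sowing. Primordia of the early, intermediate and late stage, from the 3 rings of the stem base, and cortex were cut out by laser from the same sections, and each of the 4 groups had 3 arrays, 12 in all. Every array held RNA pooled from 2 stem bases, so the spread between arrays is that between such pools and their number limits the precision. Values are log2 signals normalized by the authors, and a gene is said to fall or rise where limma gave an adjusted p under 0.05, taken over the 24161 probe sets with 1 gene, and a fold change of at least 1.5. Signals of different probe sets depend on their probes and do not rank the genes.

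The tissue labels were set against marker genes. Of the 9 markers of meristem and primordium, CDKB2-1 and SCR1 rose in the early stage and CDKB2-1 and CYCB2-1 in the intermediate stage. In the late stage 0 rose, and the median log2 change of the list was 0.31. Of all genes 1.70%, 3.21% and 1.61% rose in the 3 stages, so the late 0 says nothing about these markers. All late arrays lay above all cortex arrays for CDKB2-1 and CYCB1-3 alone of the 9, beside 13.2% of all genes. PLT1, PLT3, PLT5 and PLT6 were planned as markers too but matched no gene name. The 4 genes of green tissue had a mean signal of 3.71 to 5.27 on the cortex arrays, highest on cortex replicate 2, and of 2.20 to 2.55 on the primordium arrays, with CAB1R and CAB2R lower in every stage. The 98th percentile of signal was 6.80 on cortex replicate 1, 6.25 and 6.29 on cortex replicates 2 and 3, and 6.94 to 7.22 on the primordium arrays. Cortex replicates 2 and 3 thus stand apart in their bright probe sets, and the 2024 genes whose mean exceeded 5 had median log2 changes against cortex of 0.59 (early), 0.70 (intermediate) and 0.63 (late). Against cortex replicate 1 alone these medians were 0.22, 0.32 and 0.25.

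The 41 members were lower, never higher, in CR primordia where they passed the test. PIP1-1 and TIP1-1 fell in the early stage, PIP1-1, PIP2-6, TIP1-1, TIP2-1 and TIP4-1 in the intermediate stage, and PIP1-1, PIP2-6 and SWEET14 in the late stage. That is 2, 5 and 3 of 41 members, or 4.88%, 12.2% and 7.32%, where 0.952%, 2.51% and 1.64% of all genes tested fell. The count of members that rose was 0 in each stage by limma, beside 1.70%, 3.21% and 1.61% of all genes. At an unadjusted p under 0.05 it was 0 as well, where 11.2%, 14.3% and 12.4% of all genes were higher. With adjusted p the shares come to 0.697, 1.32 and 0.658 calls for 41 genes, so a count of 0 calls is no result about the members. In these microdissected pools fewer cells of one type and less RNA per cell cannot be told apart. The 6 members that fell in any stage are 5 of 27 aquaporins and 1 of 14 SWEET genes. The share of all genes that fell in any stage was not counted. The other 35 members passed in none, which at the low shares in each stage says nothing about them.

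**Figure D1:**
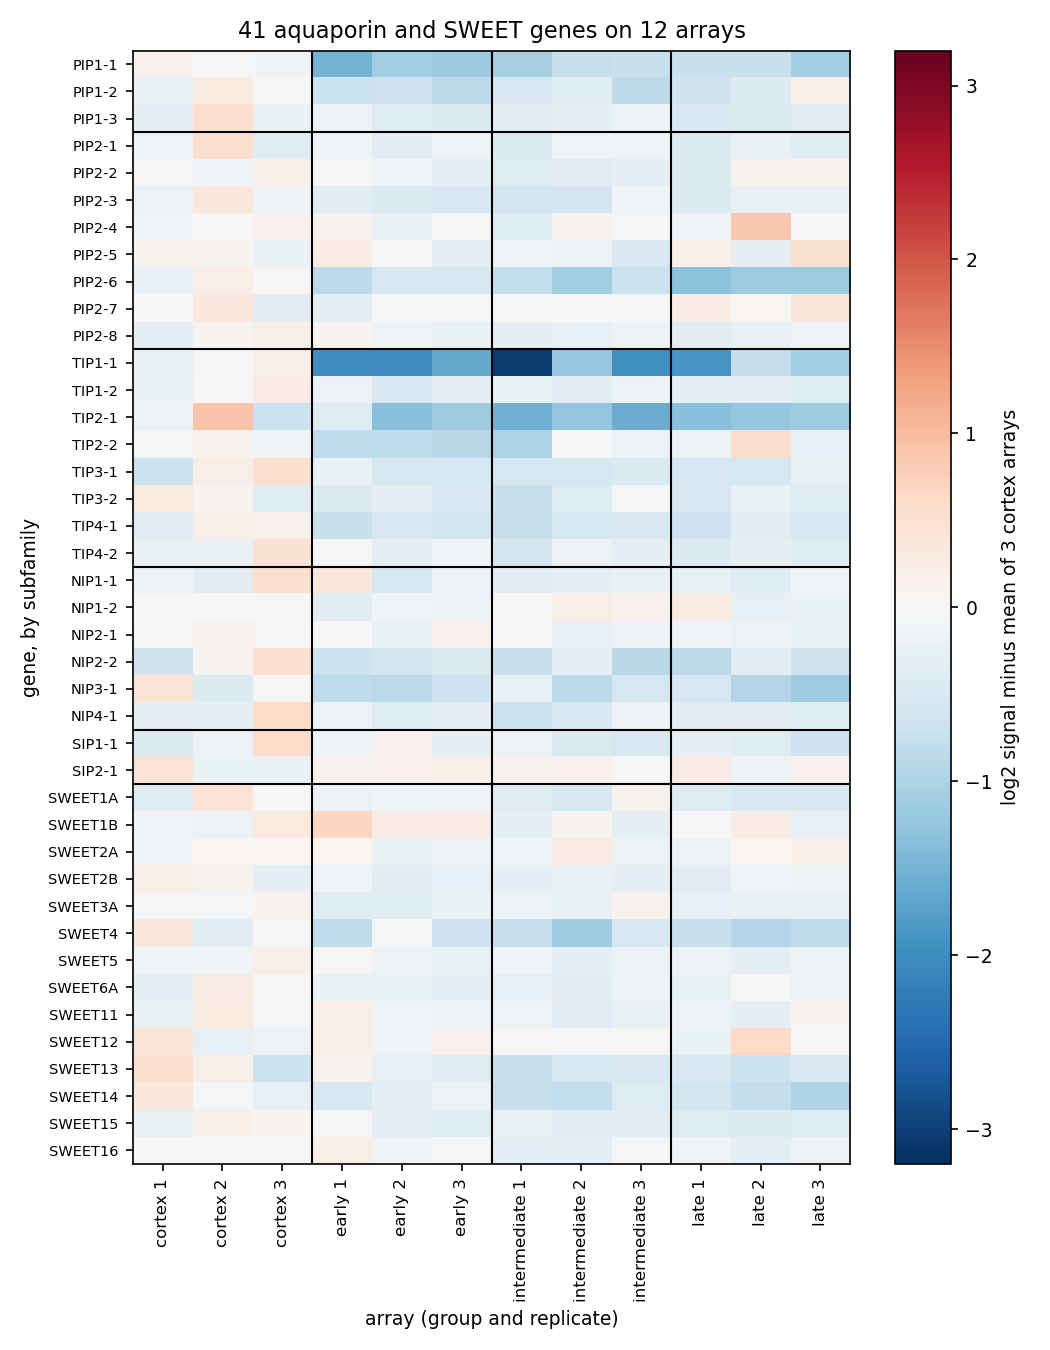
Difference of the log2 signal from the mean of the 3 cortex arrays (colour) for each of 41 members (rows, by subfamily) on each of 12 arrays (columns, 3 for each group). Blue, lower than cortex, prevails on the 9 primordium arrays, most deeply for PIP1-1, PIP2-6, TIP1-1 and TIP2-1.

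PIP1-1 (LOC4330248, also named RWC1), a water channel of the plasma membrane, fell in all 3 stages. Its log2 signal was 6.51, 6.31 and 6.29 on the 3 cortex arrays, 4.85, 5.27 and 5.21 in early, 5.31, 5.64 and 5.66 in intermediate and 5.66, 5.66 and 5.27 in late primordia. All 9 primordium arrays lay below all 3 cortex arrays. The change was -1.26 in the early stage, a 2.40-fold lower signal, and -0.84 in the intermediate and the late stage (limma, adjusted p = 0.00877, 0.0241 and 0.0307, standard error 0.16). The early call held without any single array, whereas the intermediate call was lost without cortex replicate 2 or 3 or intermediate replicate 1 or 2 (adjusted p from 0.0520 to 0.102), and the late call without cortex replicate 2 or 3, early replicate 3 or any of the 3 late arrays (adjusted p from 0.0522 to 0.0935).

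The other PIP1 genes are PIP1-2 (LOC9270874) and PIP1-3 (LOC4331194, also named RWC3), and neither passed the test in any stage. PIP1-2 had signals of 3.15, 3.68 and 3.38 in cortex and 2.70, 2.74 and 2.56 in early, 2.89, 3.01 and 2.55 in intermediate and 2.77, 2.95 and 3.55 in late primordia. The early and intermediate arrays lay below the cortex arrays, and the late arrays overlapped with them through late replicate 3. Its changes were -0.74, -0.59 and -0.31 (adjusted p = 0.0900, 0.109 and 0.388 from limma). PIP1-3 was highest on cortex replicate 2 with 3.30, against 2.50 and 2.57 on the other two cortex arrays and 2.29 to 2.62 in primordia.

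PIP2-6 (LOC4335226), of the PIP2 group whose members are efficient water channels of the plasma membrane, fell in the intermediate and late stage. Its signal was 5.87, 6.35 and 6.16 in cortex, 5.30, 5.62 and 5.60 in early, 5.33, 5.02 and 5.44 in intermediate and 4.81, 5.00 and 4.99 in late primordia. No primordium array reached the lowest cortex array, and the late arrays lay below every early and intermediate array. The changes were -0.62, -0.86 and -1.19, which is 1.54-, 1.82- and 2.28-fold lower (limma, adjusted p = 0.0688, 0.0215 and 0.00900, standard error 0.16). The intermediate call was lost without cortex replicate 2 or 3 or intermediate replicate 1 or 2 (adjusted p from 0.0545 to 0.0846), and the late call only without late replicate 1 (adjusted p = 0.0510) among the 12 arrays left out singly. Against cortex replicate 1 alone the late change was -0.93 (adjusted p = 0.144), and after quantile normalization again it was -1.81 (adjusted p = 0.0185), where the early change passed as well, at -1.29 (adjusted p = 0.0478).

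The other 7 PIP2 genes did not pass the test in any stage, and their changes lay between -0.46 and 0.24. At the low shares of all genes that passed, no call among 7 genes is no result about them. The 8 PIP2 genes had medians of -0.12 (early), -0.25 (intermediate) and -0.16 (late). PIP2-4, PIP2-5 and PIP2-1 follow one another on chromosome 7 with no protein-coding gene between them in the RefSeq order, and their late changes were 0.24, 0.10 and -0.35 (adjusted p = 0.565, 0.801 and 0.311 from limma). PIP2-4 (LOC4343119) was read at 2.84, 2.99 and 3.12 in cortex and at 2.84, 3.84 and 2.99 in late primordia, so that its late mean rests on late replicate 2. PIP2-1 (LOC4343122) was highest on cortex replicate 2 with 4.13, beside 3.49 and 3.22 on the other cortex arrays and 3.17 to 3.48 in primordia. PIP2-7 was the member of this group with a late change of 0.24 besides PIP2-4 (adjusted p = 0.406). Genes of this family are alike in sequence, and whether their probe sets take signal from one another was not tested.

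**Figure D2:**
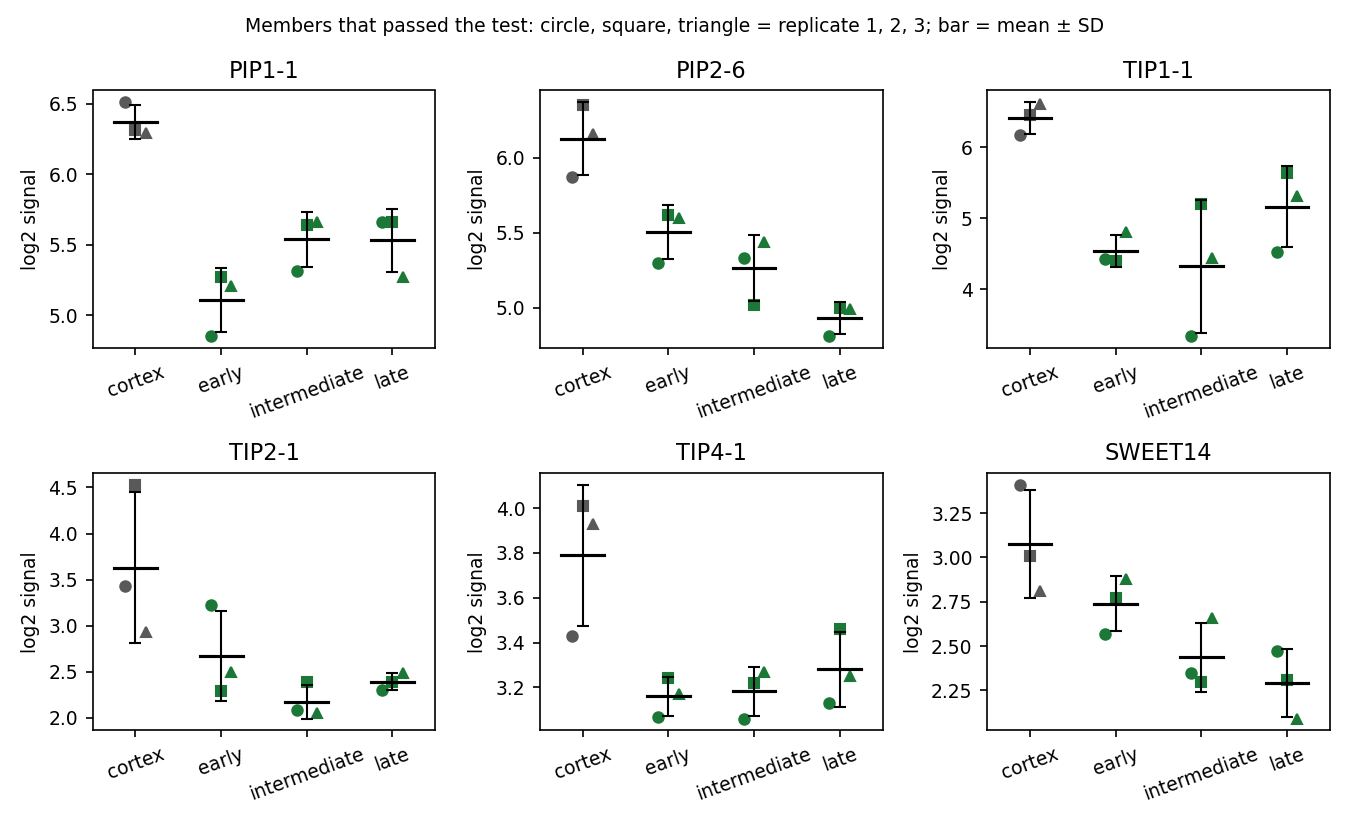
Log2 signal (vertical axis, each panel on its own range) of the 6 members that passed the test in any stage, by group, 3 arrays each (circle, square and triangle for replicate 1, 2 and 3), with mean and SD as bars. The means of PIP1-1 and TIP1-1 are lowest in early or intermediate primordia, whereas those of PIP2-6 and SWEET14 go down from cortex to late primordia. No difference between stages passed the test.

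TIP1-1 (LOC4331608), a water channel of the vacuole membrane, had the largest change among the members. Its signal was 6.17, 6.45 and 6.61 in cortex, 4.43, 4.40 and 4.80 in early, 3.34, 5.20 and 4.44 in intermediate and 4.53, 5.64 and 5.32 in late primordia. Every primordium array lay below every cortex array, while the 3 intermediate arrays spread over nearly the whole range of the primordia. The change was -1.87 in the early and -2.08 in the intermediate stage, which is 3.65- and 4.23-fold lower (limma, adjusted p = 0.0436 and 0.0246, standard error 0.41), and -1.24 in the late stage (adjusted p = 0.109). The intermediate call was lost without cortex replicate 2 or 3 or intermediate replicate 1 (adjusted p from 0.0661 to 0.0846). The early call was lost without cortex replicate 2 or 3, any of the 3 early arrays, intermediate replicate 3 or late replicate 2 or 3 (adjusted p from 0.0575 to 0.137).

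TIP2-1 (LOC4330207), also of the vacuole membrane, fell in the intermediate stage. It was read at 3.43, 4.53 and 2.93 in cortex, 3.22, 2.29 and 2.50 in early, 2.09, 2.39 and 2.05 in intermediate and 2.30, 2.39 and 2.49 in late primordia. The intermediate and late arrays lay below all cortex arrays, the early group overlapped with cortex through early replicate 1, and cortex itself spread widely with replicate 2 on top. Changes were -0.96, -1.45 and -1.24 (limma, adjusted p = 0.162, 0.0439 and 0.0792, standard error 0.36). With the replicate block the intermediate call was lost (adjusted p = 0.0518), as it was without cortex replicate 2, early replicate 2 or 3, or any intermediate or late array (adjusted p from 0.0543 to 0.144). Without cortex replicate 2, also the array with the highest green tissue signal, the 3 changes were -0.51, -1.0 and -0.78 (adjusted p = 0.404, 0.0936 and 0.189). The mean of TIP2-1 over the 12 arrays, 2.719, lies below the median of all probe sets, 2.89.

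TIP4-1 (LOC4338163) had signals of 3.43, 4.01 and 3.93 in cortex, 3.07, 3.24 and 3.17 in early, 3.06, 3.22 and 3.27 in intermediate and 3.13, 3.46 and 3.25 in late primordia. Only late replicate 2 reached the range of cortex. It fell in the intermediate stage, close to the threshold, with changes of -0.63, -0.61 and -0.51 in the 3 stages (limma, adjusted p = 0.0624, 0.0496 and 0.0939, standard error 0.16). With the replicate block it also passed in the early stage (adjusted p = 0.0354). The intermediate call was lost without any 1 of 11 arrays, all but cortex replicate 1 (adjusted p from 0.0597 to 0.168). Set against cortex replicate 1 only, the change was -0.25 (adjusted p = 0.685).

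TIP2-2 (LOC4340941), another channel of the vacuole membrane, did not pass the test in any stage. Its signal was 4.04, 4.18 and 3.98 in cortex, 3.25, 3.25 and 3.19 in early, 3.08, 4.09 and 3.89 in intermediate and 3.88, 4.64 and 3.80 in late primordia. Early arrays lay close together below the cortex arrays, and late arrays overlapped with cortex. Its changes of -0.84, -0.38 and 0.04 did not pass the test (adjusted p = 0.115, 0.370 and 0.936 from limma). The remaining 4 TIP genes, TIP1-2, TIP3-1, TIP3-2 and TIP4-2, had changes between -0.54 and -0.13 and passed in no stage. TIP3 proteins are known from seeds in Arabidopsis. Over the 8 TIP genes the median was -0.54, -0.47 and -0.43, beside -0.03, -0.03 and -0.02 over all genes tested. The mean of the 8 TIP signals was 3.40 to 3.78 on the cortex arrays and 2.56 to 3.22 on the primordium arrays, without overlap. Means of the PIP1 genes (4.05 to 4.43 and 3.37 to 3.75) and NIP genes (3.08 to 3.52 and 2.77 to 2.96) did not overlap either. Those of the PIP2, SIP and SWEET genes met or overlapped. Medians of the 3 PIP1 genes were lower than those of the TIP genes, at -0.74, -0.59 and -0.45.

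Of the 6 NIP genes, 0 passed the test in any stage. As 0.952%, 2.51% and 1.64% of all genes fell, this count says nothing about the NIP genes. NIP3-1 (LOC4349102, also named DTE1), a boron channel of rice needed when boron is scarce, had the largest change of them in the early and late stage. It was read at 4.80, 3.92 and 4.40 in cortex, 3.56, 3.51 and 3.71 in early, 4.11, 3.51 and 3.82 in intermediate and 3.83, 3.44 and 3.22 in late primordia. Early and late arrays lay below the cortex arrays, and intermediate replicate 1 lay within their range. Changes were -0.78, -0.56 and -0.88 (limma, adjusted p = 0.104, 0.154 and 0.0684, standard error 0.24), and the late change passed with the replicate block (adjusted p = 0.0448). NIP2-1, the silicon influx channel Lsi1 of rice roots, differed from cortex by -0.05, -0.17 and -0.17 (adjusted p = 0.839, 0.367 and 0.398). Its relative NIP2-2, named Lsi6, had 2.26, 2.97 and 3.43 in cortex and 2.01 to 2.59 in primordia, with changes of -0.56, -0.62 and -0.61 (adjusted p = 0.261, 0.158 and 0.194). NIP1-1 (LOC4328814) and NIP4-1 (LOC4326119) were each highest on cortex replicate 3, with 3.97 and 3.85, and their changes of -0.46 to -0.13 did not pass. The partner of Lsi1 in silicon uptake, the efflux transporter Lsi2, had changes of -0.38, -0.34 and -0.38 (adjusted p = 0.146, 0.130 and 0.126).

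The 2 SIP genes showed no change that passed, which at the low shares of all genes that passed says nothing about them. SIP1-1 (LOC4325361) was read at 3.64, 3.88 and 4.69 in cortex and 3.41 to 4.21 in primordia. SIP2-1 (LOC4332668) lay between 2.80 and 3.22 on the primordium arrays and at 3.41, 2.74 and 2.70 in cortex, so that cortex spanned the whole range of primordia. Its changes were 0.13, 0.08 and 0.09 (limma, adjusted p = 0.713, 0.804 and 0.796, standard error 0.19).

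**Figure D3:**
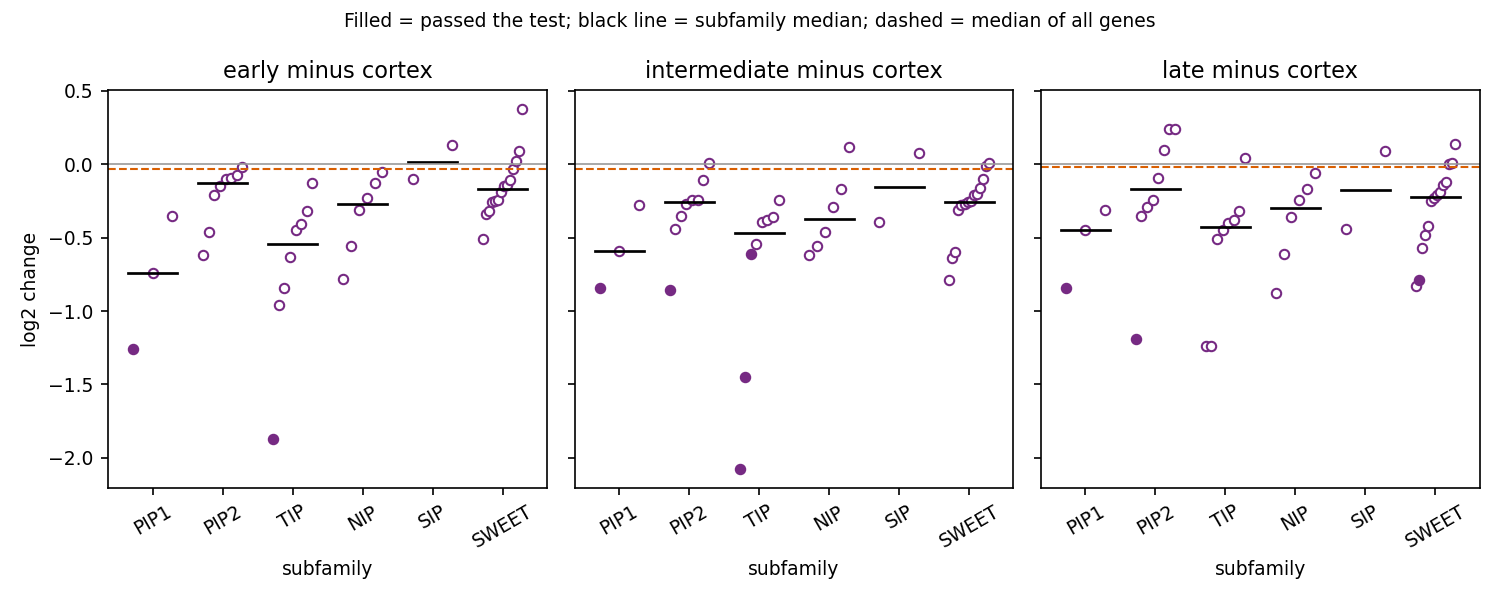
Log2 change against cortex (vertical axis) of each of 41 members (points) by subfamily, in 1 panel for each stage, with members that passed the test filled, subfamily medians as black lines and the median of all genes dashed. Most points lie below 0, and 2 members are filled for early, 5 for intermediate and 3 for late primordia.

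SWEET14 (LOC4350572, also named Os11N3) was the 1 SWEET gene of 14 that passed the test, in the late stage, where 1.64% of all genes fell. It belongs to clade III and is known in rice as a gene that leaf blight bacteria switch on. Its signal was 3.41, 3.01 and 2.81 in cortex, 2.57, 2.77 and 2.88 in early, 2.35, 2.30 and 2.66 in intermediate and 2.47, 2.31 and 2.09 in late primordia. Intermediate and late arrays lay below every cortex array, and early replicate 3 lay within the range of cortex. The changes were -0.34, -0.64 and -0.79, the last a 1.72-fold lower signal (limma, adjusted p = 0.305, 0.0566 and 0.0441, standard error 0.18). With the replicate block the late call was lost (adjusted p = 0.0616). Of the 12 arrays only cortex replicates 1 and 3 could be left out without losing it (adjusted p from 0.0506 to 0.111 for the other 10).

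The other clade III genes did not pass in any stage. SWEET13 had 3.68, 3.37 and 2.49 in cortex and 2.46 to 3.30 in primordia, with changes of -0.19, -0.60 and -0.57 (adjusted p = 0.714, 0.164 and 0.213 from limma). SWEET15 had changes of -0.26, -0.31 and -0.42 (adjusted p = 0.277, 0.144 and 0.0925), and its intermediate and late arrays lay below those of cortex. SWEET11, which with its close relatives feeds sucrose into the rice grain, differed by -0.03, -0.25 and -0.14 (adjusted p = 0.940, 0.344 and 0.623). SWEET12 was read at 3.14 on late replicate 2 and at 2.24 to 2.95 on the other 11 arrays, without a change that passed. The means of these 4 genes over the 12 arrays, like that of SWEET14, 2.635, lay below 2.89, the median over all probe sets.

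SWEET4 (LOC4329093), a hexose transporter of clade II known from the filling rice grain, had signals of 4.63, 3.96 and 4.31 in cortex, 3.49, 4.24 and 3.63 in early, 3.57, 3.16 and 3.79 in intermediate and 3.58, 3.35 and 3.48 in late primordia. The intermediate and late arrays lay below cortex, and early replicate 2 within its range. Changes were -0.51, -0.79 and -0.83 (limma, adjusted p = 0.248, 0.0669 and 0.0774, standard error 0.24), so that SWEET4 did not pass the test in any stage. SWEET1B (LOC4338851), of clade I, had the highest change of any member in any stage, 0.38 in early primordia, where it was read at 3.64, 3.23 and 3.26 beside 2.87, 2.80 and 3.31 in cortex. The groups overlapped and the change did not pass (adjusted p = 0.288), and in the late stage it was 0.00. SWEET1A (LOC4324848) was highest on cortex replicate 2 with 3.61 and had changes of -0.15, -0.26 and -0.48 (adjusted p = 0.729, 0.442 and 0.203). The remaining genes, SWEET2A, SWEET2B, SWEET3A, SWEET5, SWEET6A and SWEET16, had changes between -0.32 and 0.02 and passed in no stage. SWEET6A and SWEET6B are names of 1 locus in the RefSeq table and were counted once.

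Across all 41 members, changes that did not pass were mostly negative as well. A negative change was read for 37 members at the early, 37 at the intermediate and 34 at the late stage, with medians of -0.24, -0.29 and -0.31, while 54.9%, 53.6% and 52.8% of all genes tested did. For the 14 SWEET genes the medians were -0.17, -0.25 and -0.22. The 3 stages share their cortex arrays, so these counts are not independent of one another. Against cortex replicate 1 alone, 28, 29 and 31 members were lower, with medians of -0.09, -0.11 and -0.11, and 46.1%, 46.6% and 45.1% of all genes. With each array quantile normalized again the counts were 34, 36 and 34, beside 51.9%, 50.2% and 49.2% of all genes. Among genes above the median signal the medians were 0.09, 0.14 and 0.12, and -0.41, -0.42 and -0.40 for the 16 members there. Over all genes, dim ones thus leaned lower than bright ones. The 16 brighter members, in contrast, had lower medians than the 41 members together. All genes are not a like background for the 25 dimmer members, here or in the counts of non-overlap below.

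The arrays of early, intermediate and late primordia all lay below all cortex arrays for 10, 11 and 18 members, or 24.4%, 26.8% and 43.9%, beside 11.6%, 15.4% and 14.2% of all genes. Primordium arrays all lay above those of cortex for 0 members in each stage, where 12.4%, 16.1% and 13.2% of all genes did. PIP1-1, PIP2-6 and TIP1-1 were the 3 members below cortex in every stage, 7.32% beside 4.97% of all genes. Another 18 members, 43.9% beside 75.9% of all genes, were so in none, PIP2-1, PIP2-4, NIP1-1 and both SIP genes among them. Of the 41 members 30 had their highest signal on a cortex array, 8 on replicate 1, 11 on replicate 2 and 11 on replicate 3, which is 73.2% where 40.9% of all genes did. By mean signal 16 members lay above the median of all probe sets, 2.89, and 25 at or below it.

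**Figure D4:**
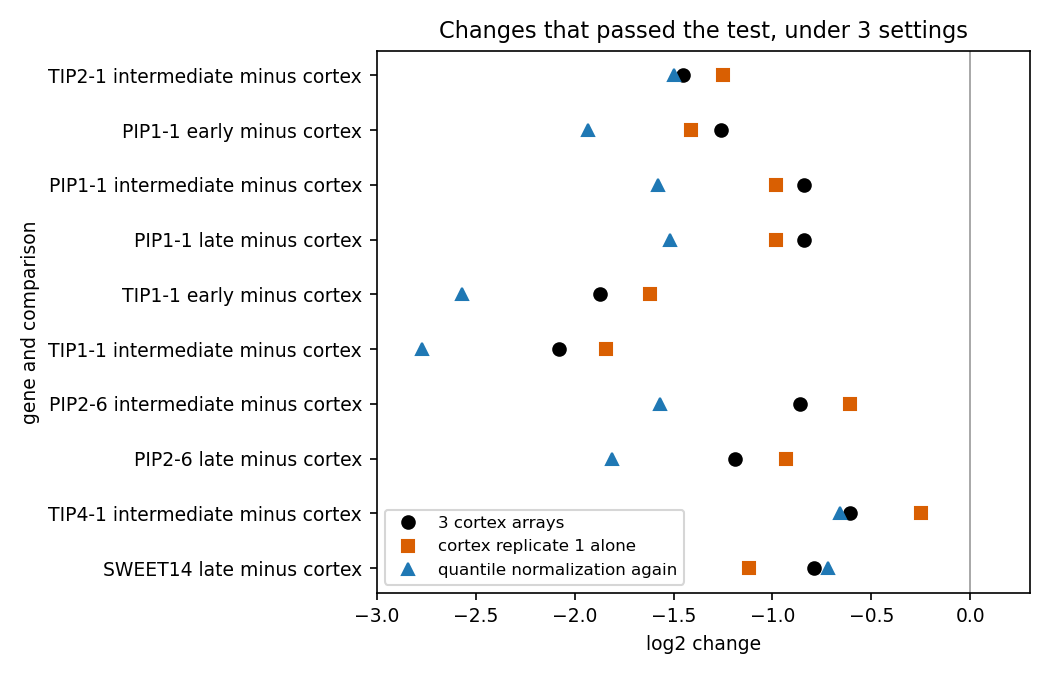
Log2 change against cortex (horizontal axis) for the 10 changes that passed the test, computed with 3 cortex arrays (circles), with cortex replicate 1 alone (squares) and after quantile normalization again (triangles). All points lie below 0, from -2.77 for TIP1-1 to -0.25 for TIP4-1. Squares could not lie above 0, as every array of the stage lay below every cortex array.

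PIP1-1, PIP2-6 and TIP1-1 have mean signals of 5.64, 5.46 and 5.11, and of the genes whose mean exceeded 5, those lower than in cortex made up 18.0%, 14.4% and 16.4% in the 3 stages. Quantile normalization again, which gives all arrays one distribution, moved PIP1-1 to -1.93, -1.58 and -1.52 and TIP1-1 to -2.57 in the early and -2.77 in the intermediate stage. It also moved the share of those bright genes that were lower to 45.5%, 45.3% and 45.8%, with medians of 0.08, 0.11 and 0.08. Against cortex replicate 1 alone the values of PIP1-1 were -1.41, -0.98 and -0.98 and those of TIP1-1 -1.62 and -1.84, none of which passed (adjusted p between 0.0547 and 0.447), while the share of bright genes lower was 33.3%, 23% and 26.4%. The size of these changes depends on the scaling of the cortex arrays. Their sign was negative under each setting run. Since every primordium array of these genes lay below every cortex array, only a rescaling could have turned it.

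When stages were compared with each other, 0 members passed by limma, and neither did any other gene (0%), so this count says nothing about the members. At an unadjusted p under 0.05 there were 4 members between late and early, 3 between intermediate and early and 0 between late and intermediate primordia, or 9.76%, 7.32% and 0% of 41, beside 6.20%, 3.14% and 2.48% of all genes. PIP2-6 was read lower in late than in early primordia by a log2 change of -0.57 (95% interval from -0.93 to -0.21, adjusted p = 0.563). Its early arrays, 5.30 to 5.62, did not overlap with its late arrays, 4.81 to 5.00. TIP2-2 was read higher in late primordia by 0.88 (interval from 0.28 to 1.47, adjusted p = 0.611), with 3.19 to 3.25 in early and 3.80 to 4.64 in late primordia. PIP1-1 had 0.42 (interval from 0.06 to 0.79, adjusted p = 0.732) and SWEET14 had -0.45 (interval from -0.84 to -0.06, adjusted p = 0.734). The intervals are not adjusted for the number of genes. PIP2-6, TIP2-2 and PIP1-1 had the lowest p of the members here, so intervals without 0 follow from that choice. The share of all genes whose early and late arrays do not overlap was not counted.

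**Figure D5:**
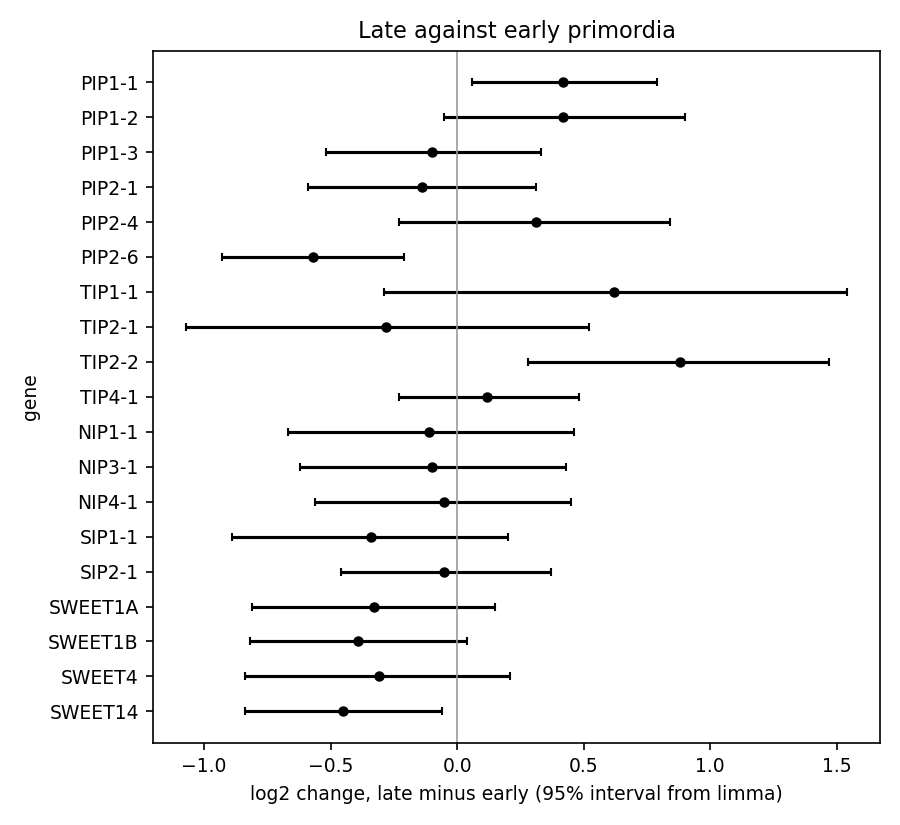
Log2 change of late against early primordia (horizontal axis) with its 95% interval from limma for the 19 named members (rows, 3 arrays in each group). The intervals of PIP1-1, PIP2-6, TIP2-2 and SWEET14 do not cross 0, and 0 members passed after adjustment. The first 3 of these had the lowest p of all members in this comparison, which is 1 of the rules for naming members.

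Other genes of sugar handling, taken by symbol, showed no calls. The 4 sucrose transporters, 2 monosaccharide transporters, 9 invertases, which split sucrose, and 7 sucrose synthases, which do so reversibly, had 0 members that rose and 0 that fell in any stage. At the shares of all genes these 22 genes would hold between 0.209 and 0.707 calls in a stage and direction, so the 0 says nothing about them. Medians of the sucrose transporters were -0.11, -0.13 and -0.06 and those of the invertases -0.19, -0.27 and -0.18. SUT1, the sucrose carrier of phloem loading, had changes of -0.17, -0.23 and -0.32. SUS1 was read higher in late primordia by 0.46 (adjusted p = 0.233). The proton pump gene a7 had changes of -0.37, -0.32 and -0.30 (adjusted p = 0.149, 0.147 and 0.194). SUT1 and SUS1 are also the 2 phloem markers. The 2 phloem and 3 secondary wall markers had 0 calls, which says nothing about so few genes. Their mean signals were 3.33 to 3.41 and 2.72 to 3.31 in cortex and 3.21 to 3.64 and 2.59 to 2.76 in primordia. The phloem mean averages 2 genes whose late changes had opposite signs. CESA4, a secondary wall marker, lay below every cortex array in each stage, with changes of -0.58, -0.58 and -0.53. CESA7 and CESA9 overlapped with cortex. The part of the tissue makeup in the members' changes was not tested.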

How the data were processed

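RNA of 12 microdissected tissue pools was amplified and hybridized to Affymetrix rice arrays. The authors deposited 1 normalized log2 signal per probe set and array. Their article names Robust Multi-array Average and the deposited record GCRMA in Affymetrix Expression Console, so which of them made the values is not known here. Of 36643 probe sets 24161 carried 1 gene, 90 several and 12392 none. A group means model over all probe sets and the 12 arrays was fitted with limma 3.58.1 in R 4.3.3, with contrasts and eBayes (8 residual and 2.55 prior degrees of freedom). P values were adjusted by Benjamini-Hochberg over the 24161 probe sets with 1 gene, and calls needed an adjusted p under 0.05 and a fold change of 1.5. The fit was tested on simulated data with independent noise. These held neither paired arrays nor the lower bright signal of cortex replicates 2 and 3, so the test does not cover those conditions. Gene names were matched through the RefSeq table of assembly ASM3414082v1, and no sequence or coordinate was used. Members named with values are those called in any stage, the 3 of highest mean and the 1 of largest change in each subfamily, SWEET14, and the 3 of lowest p in late against early. Others, such as NIP2-1, SWEET13 and SWEET11, were chosen for their roles or after their values were seen. Members and lists were chosen with earlier results of these data known. From the lists, OSA15, a photosystem gene, and VP1, a transcription factor, were dropped as unrelated.

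The article used pairs of stem bases as replicates and cut cortex from the sections that gave the primordia. Sample titles number the repetitions of each tissue, and arrays of the same number were taken as paired. The check by deviations from group means gave a mean correlation of 0.0508 over 18 same-numbered pairs and of -0.0258 over 36 others. Same-numbered pairs ran from -0.315 (cortex and early) to 0.355 (intermediate and late), so the check does not settle the pairing. The fit had no block, as the article names none, and the replicate block stands as an alternative. Further alternatives were the 6 arrays compared alone, quantile normalization again, median centring, a filter at the median signal, an intensity trend or robust prior, array weights, an unadjusted p under 0.01, the mean of all probe sets of a gene (fitted on probe sets with 1 gene), cortex replicate 1 alone, and omission of each array or replicate number.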

Additional observations from a re-analysis of the deposited data

How the results depend on the processing

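The counts of members that fell, 2 (early), 5 (intermediate) and 3 (late), moved with the fit, as did the share of all genes that fell. The 10 changes behind the counts stayed negative under every alternative. For them every array of the stage lay below every cortex array, so only a rescaling could have turned the sign. With only the 6 arrays compared the counts were 0, 0 and 0, but 0, 1 and 1 of all genes fell then, so this says nothing about the members. With cortex replicate 1 alone, an arm of 1 array, they were 0, 0 and 0, beside 0.397%, 0.430% and 0.443% of all genes. An intensity trend in the prior gave 1 in the early and 2 in the intermediate stage (0.873% and 2.22% of all genes). Quantile normalization again gave 3 in the intermediate stage (2.04% of all genes). The mean of all probe sets of a gene, fitted without probe sets of no or several genes, gave 4 in the early stage (1.57% of all genes). An unadjusted p under 0.01 gave 6 in the early and 6 in the late stage (2.38% and 3.40% of all genes). It also gave 1 member, TIP2-2, between late and early primordia, where 92 of 24161 genes were higher and 175 lower. Leaving out 1 array or 1 replicate number gave 0 to 7, 0 to 7 and 0 to 6. The counts were 7, 7 and 6 without cortex replicate 1, where 4.16%, 7.16% and 5.89% of all genes fell. They were 0 without replicate 2 of all tissues, where 0 genes fell, and without replicate 3, where 12, 13 and 9 did. The intermediate count was also 0 without cortex replicate 2 or intermediate replicate 1, and the late count 0 without late replicate 1. Of all genes only 0.704%, 0.141% and 0.203% fell in these settings, so these counts say nothing about the members. The replicate block, which pairs arrays of the same replicate number, gave 3, 4 and 3, beside 0.985%, 2.26% and 1.31% of all genes. It changed no call other than those of TIP2-1, TIP4-1, SWEET14 and NIP3-1. Counts of members that rose stayed 0 under every alternative. The share of all genes tested that rose ran from 0% without replicate 2 to 8.23% with the filter at the median signal (intermediate). Where few or no genes rose, a count of 0 says nothing about the members. The 10 called changes gave 248 values under alternatives, of which 134 kept the call and 114 lost it. The number of arrays, 3 in each group, and the dim signal of 25 members limit what could be detected, and a member that did not pass is not shown to be alike in the tissues.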
